A study of Sus scrofa with 12 samples.

Results

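The miR-23, miR-27 and miR-24 clusters are a pair of paralogous groups of microRNAs (miRNAs), small RNAs that lower the output of the messages they pair with, each group made from 1 shared transcript. Their members were chosen by name: ssc-miR-23a, ssc-miR-27a, ssc-miR-23b, ssc-miR-27b-3p, ssc-miR-27b-5p, ssc-miR-24-1-5p and ssc-miR-24-2-5p (named without the pig prefix from here on), which are 7 of the 252 mature pig miRNAs measured. The row of miR-24-3p, the arm that both miR-24 genes share, is no member and is given beside them. The miRNAs were sequenced from extracellular vesicles, particles bounded by membrane that cells shed, pelleted by ultracentrifugation from medium that bone marrow mesenchymal stromal cells of wild-type juvenile Yucatan minipigs had conditioned. The cells came from the acetabulum of 4 donor animals and were expanded on plates and frozen at passage 3 before use. Cells of each donor were then grown in 3 ways, which gave 12 libraries with 1 library for each donor and culture. In the perfusion bioreactor, medium circulated at 4 mL/min over cells seeded on bioscaffolds, and the labels give no serum content for that medium. On microcarriers, cells attached to beads in a spinner flask without fetal bovine serum, and 10% serum was added after 2 hours. On tissue culture plates, cells were seeded at 5000 per cm2 in medium with 10% serum. All 12 libraries shared the plate expansion before the test culture and the way vesicles were isolated.

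In mammals the a cluster encodes miR-23a, miR-27a and a miR-24 gene, and the b cluster encodes miR-23b, miR-27b and the other miR-24 gene. Each hairpin can release a 5p and a 3p arm, of which usually 1 is kept and the other is degraded. In mouse osteoblasts the a cluster is known to be repressed by Runx2 and to restrain bone formation, and in mouse and human fat precursors miR-27a and miR-27b restrain adipogenesis through PPARG. In mouse and human endothelial cells miR-23 and miR-27 are known to promote vessel sprouting, and miR-24 is known in human cells as a brake on proliferation genes such as MYC.

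The pig RefSeq annotation (Sscrofa11.1, used for names and chromosomes only) places MIR23A, MIR27A and MIR24-1 on the same chromosome. MIR23B, MIR27B and MIR24-2 share another chromosome, and distances between the genes were not compared. Human numbering is the other way round for the miR-24 genes, and sums of each cluster were therefore made both ways, since which locus each miR-24 row of the table stands for was not checked. The rows of miR-23a, miR-23b and miR-27a carry no arm in their names. miR-23a and miR-23b are near-identical, as are miR-27a and miR-27b-3p, so reads could be split between the rows of a pair and each is uncertain as a separate miRNA. Mature miRNAs are of nearly the same length, so read counts were compared between miRNAs without scaling by length. Whether the library preparation captured each miRNA and arm equally was not tested. Ranks, shares and ratios between different miRNAs are therefore those of reads and not of molecules.

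Perfusion libraries held 671012 to 1614726 reads, microcarrier libraries 607776 to 2244584 and plate libraries 264407 to 3253003. The values are normalized counts, which are reads divided by 1 factor per library. The 16 measured rows of stromal markers summed to 513351 to 623457 normalized counts in perfusion, 412625 to 633049 on microcarriers and 347935 to 537549 on plates, and none of these rows was at 0. Markers of blood cells (7 rows) summed to 39.1 to 385 normalized counts in perfusion, with miR-223 at 0 in all 4 libraries, 2457 to 8852 on microcarriers and 699 to 3228 on plates. The endothelial miR-126 (2 rows) summed to 119 to 191 in perfusion, 945 to 6092 on microcarriers and 583 to 2184 on plates, and 3 liver and gut markers summed to 20.3 to 64.1, 270 to 2446 and 187 to 1241 in the same order of cultures. In limma all 7 blood-cell rows and both miR-126 rows were called lower in perfusion against plates and against microcarriers. Neural rows (7) summed to 2166 to 2766, 818 to 1444 and 1398 to 2922, and muscle rows (3) to 253 to 884, 237 to 999.7 and 749.7 to 1981, again in that order. The sums of blood, endothelial, and liver and gut rows moved with the culture groups, and their part in the differences of the members was not tested. Refits without those 12 rows change only the scaling of each library and leave in place any reads of the members from the same sources.

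Together the 7 members held 6.79% ± 2.47 of the normalized counts in perfusion, 13.4% ± 3.85 on microcarriers and 8.59% ± 4.76 on plates (SD, n = 4 each), with the groups overlapping. miR-27b-3p made up most of this sum in every library. Its share of the library was 5.39%, 7.14%, 1.98% and 3.79% in perfusion (donors 1 to 4), 13.6%, 11.1%, 4.73% and 9.10% on microcarriers, and 11.2%, 8.81%, 3.28% and 3.20% on plates. Donor 3 was the lowest or next to lowest in each culture. By rank within a library, miR-27b-3p stood as high as rank 2 on microcarriers and plates and rank 4 in perfusion. miR-23a, miR-23b and miR-27a averaged far below miR-27b-3p, at 10337 ± 6025, 10814 ± 6114 and 10542 ± 4689 normalized counts against 85483 ± 47524 (SD, n = 12). The 5p rows were far lower, at 411 ± 125.9 for miR-24-1-5p, 313 ± 375 for miR-27b-5p and 43.6 ± 26.2 for miR-24-2-5p. The vesicles of a library were sequenced in bulk, so fewer vesicles carrying a miRNA and less of it per vesicle cannot be told apart in any value given here.

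**Figure D1:**
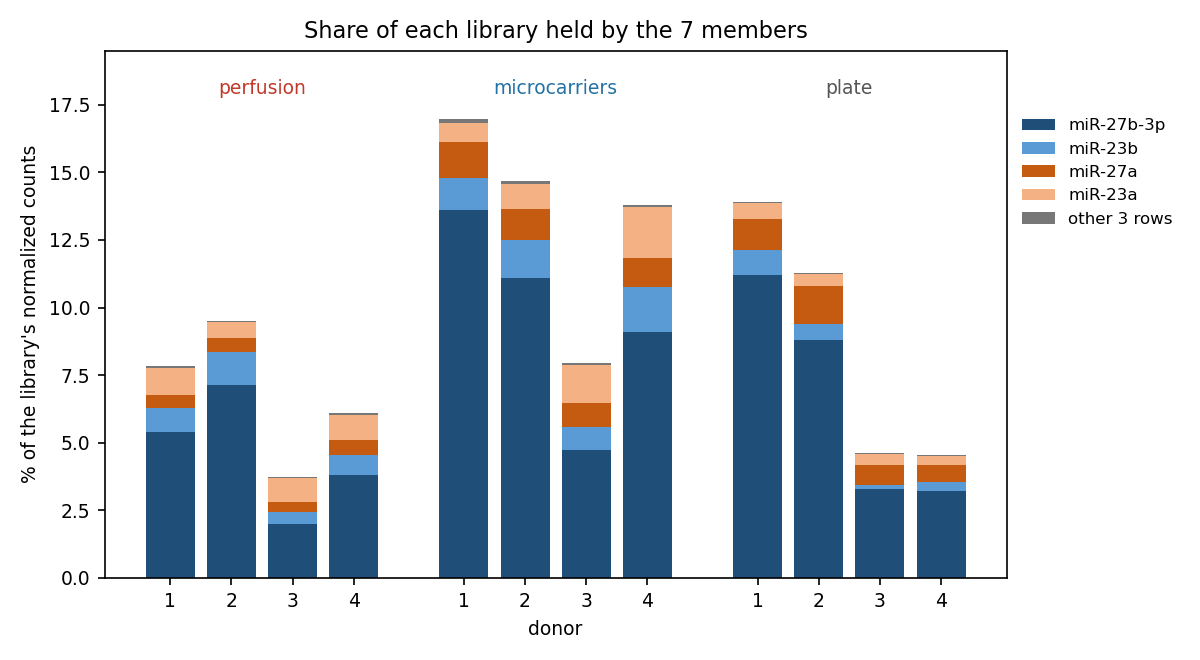
Share of each library's normalized counts held by the members (y axis, %), 1 bar per library, by culture and donor (x axis), stacked by miRNA. miR-27b-3p fills most of each bar, and the total runs from 3.74% (perfusion, donor 3) to 17.0% (microcarriers, donor 1).

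Vesicles of both dynamic cultures carried more miR-23a, the first miRNA of the a cluster, than plate vesicles did. In perfusion, miR-23a stood at 10744, 7673, 9731 and 11175 normalized counts (donors 1 to 4), on microcarriers at 8634, 12430, 16956 and 25649, and on plates at 6119, 5863, 4939 and 4134. All perfusion and all microcarrier libraries lay above all plate libraries, while perfusion and microcarriers overlapped. In limma with Benjamini-Hochberg adjustment over 252 miRNAs, miR-23a rose in perfusion against plates by 0.90 ± 0.30 log2 units (± SE, from 4 libraries a culture; adjusted p = 0.0493, higher in 4 of 4 donors) and on microcarriers against plates by 1.50 ± 0.30 (limma adjusted p = 0.0143, 4 of 4 donors). Both comparisons use the same 4 plate libraries. Perfusion minus microcarriers was -0.60 ± 0.30 (limma adjusted p = 0.217). The perfusion call ended when any perfusion or plate library, or microcarriers 2 or 3, was left out (highest limma adjusted p 0.132) and with a pseudocount of 0.1 (0.0515). The microcarrier call ended without microcarriers 3, plate 3 or plate 4 (limma adjusted p 0.0520, 0.0503 and 0.0509) and in a fit of only these groups (0.0819).

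miR-23b, its near-identical paralogue in the b cluster, had 9358, 16060, 4814 and 9314 normalized counts in perfusion, 14089, 18605, 10283 and 22853 on microcarriers and 10080, 7676, 1918 and 4722 on plates. Every microcarrier library lay above every plate library, if only just (10283 against 10080), and the perfusion libraries overlapped both. The log2 difference of microcarriers minus plates, 1.61 ± 0.48 (higher in 4 of 4 donors), did not pass in limma (adjusted p = 0.109), while with donor as a block it did (limma adjusted p = 0.00861). It also passed in limma without plate 1 (adjusted p = 0.0340). Perfusion minus plates was 0.82 ± 0.48 (limma adjusted p = 0.274, higher in 3 of 4 donors), and perfusion minus microcarriers was -0.80 ± 0.48 (limma adjusted p = 0.279, lower in 4 of 4).

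Perfusion vesicles carried less miR-27a, the neighbour of miR-23a, than vesicles of either other culture. Perfusion libraries held 5286, 6707, 3758 and 6754 normalized counts of miR-27a, microcarrier libraries 15622, 15445, 10835 and 14745, and plate libraries 12513, 18155, 8284 and 8405. All 4 perfusion libraries lay below every other library, and microcarriers and plates overlapped. In log2 units miR-27a fell by 1.03 ± 0.29 in perfusion against plates (± SE; limma adjusted p = 0.0235, lower in 4 of 4 donors) and fell by 1.36 ± 0.29 against microcarriers (limma adjusted p = 0.00671, 4 of 4). The difference of microcarriers minus plates was 0.32 ± 0.29 (limma adjusted p = 0.536). The call against plates ended without perfusion 1, perfusion 3, plate 1 or plate 2 (limma adjusted p 0.0611, 0.0810, 0.0529 and 0.0698), while the call against microcarriers held in all 21 alternatives (limma adjusted p 0.00152 to 0.0273).

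The abundant arm of the b cluster, miR-27b-3p, stood at 57265, 93036, 20884 and 45895 normalized counts in perfusion, 160507, 149108, 57555 and 125027 on microcarriers, and 121171, 114803, 38189 and 42355 on plates. The 3 groups overlapped, and within each culture donor 3 was the lowest. Perfusion minus microcarriers was -1.27 ± 0.50 on the log2 scale and lower in 4 of 4 donors (limma adjusted p = 0.104). With donor as a block this difference passed in limma (adjusted p = 0.00248), and it also did without microcarriers 3 (0.0486). Between microcarriers and plates the difference was 0.73 ± 0.50 (limma adjusted p = 0.369, higher in 4 of 4 donors), and perfusion minus plates was -0.53 ± 0.50 (limma adjusted p = 0.480).

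**Figure D2:**
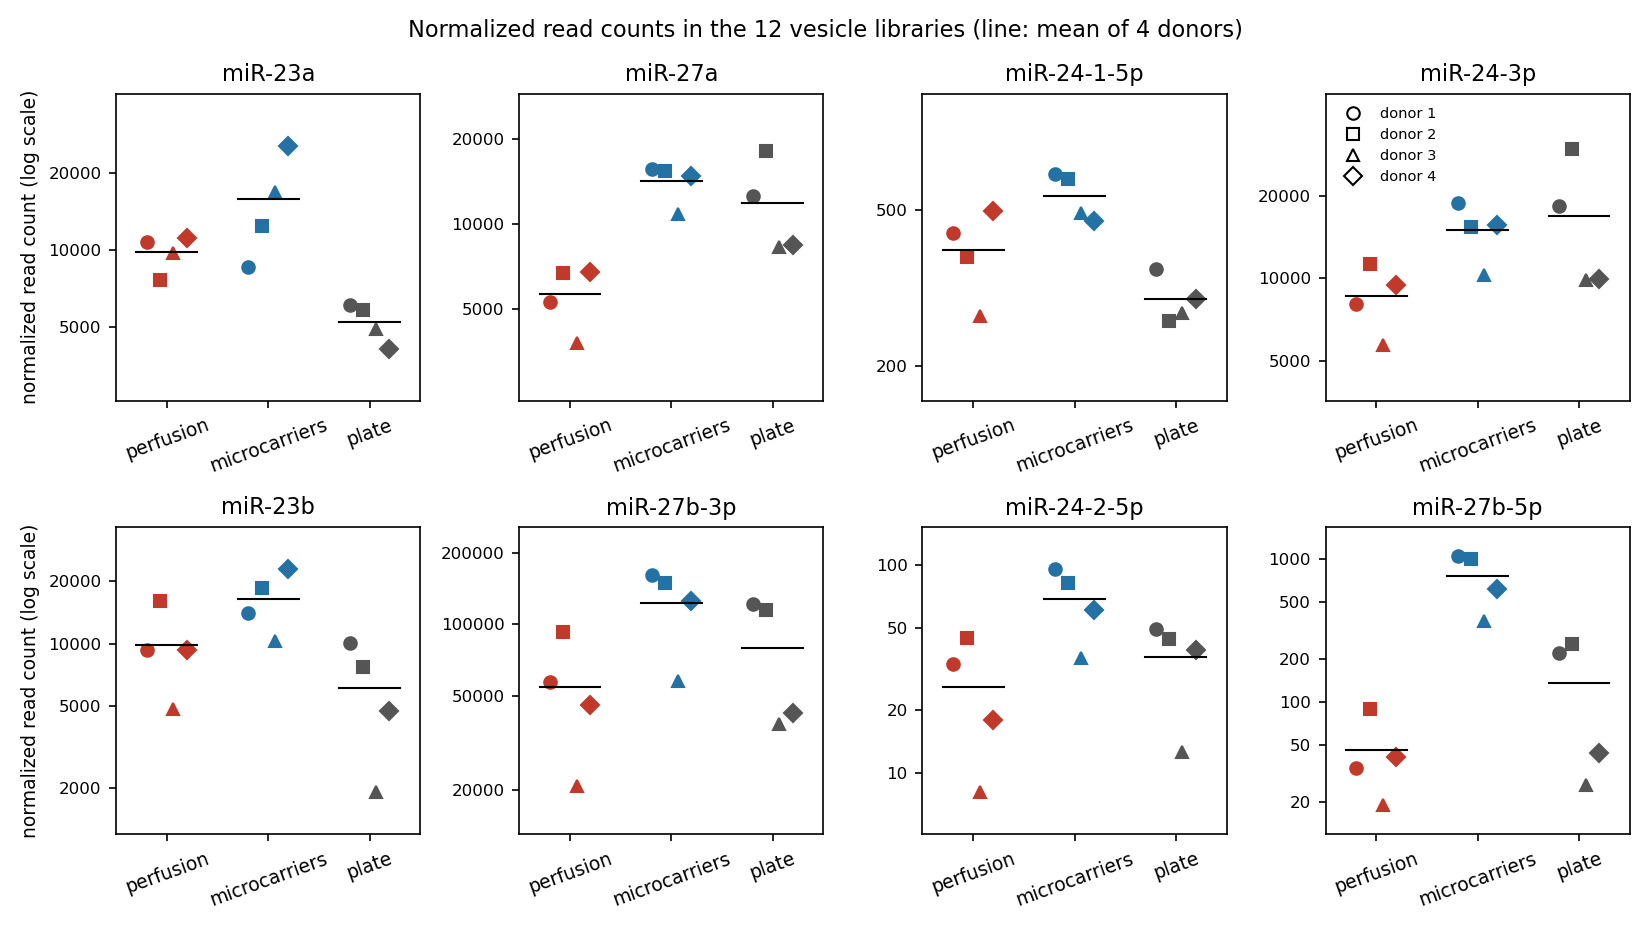
Normalized read count (y axis, log scale) of the 7 members and of miR-24-3p in each of the 12 libraries, by culture (x axis), with 1 symbol per donor and a line at the mean of 4 donors. All plate libraries lie below the others for miR-23a, and all perfusion libraries lie below the others for miR-27a.

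The minor arm, miR-27b-5p, was most abundant in vesicles from microcarriers. It had 34.7, 89.4, 18.9 and 41.2 normalized counts in perfusion, 1047, 994, 369 and 613 on microcarriers, and 219, 256, 26.4 and 44.0 on plates. All microcarrier libraries were above all others. Plates split by donor, with donors 3 and 4 inside the perfusion range and donors 1 and 2 above it. In log2 units miR-27b-5p fell by 4.10 ± 0.69 in perfusion against microcarriers (± SE; limma adjusted p = 0.00125, lower in 4 of 4 donors), and this call held in all 21 alternatives (limma adjusted p 4.57e-05 to 0.00702). On microcarriers it rose against plates by 2.93 ± 0.69 (limma adjusted p = 0.0409, 4 of 4 donors). That call ended when any of perfusion 1 or 4, microcarriers 1, 2 or 4 and plate 3 or 4 was left out (highest limma adjusted p 0.127), with a pseudocount of 0.1 (0.0517) and in a fit of only these groups (0.0963). Perfusion minus plates was -1.17 ± 0.69 (limma adjusted p = 0.273). The perfusion values rest on 48, 46, 14 and 55 reads.

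The share of the 5p arm among all miR-27b reads does not depend on the scaling of a library. In perfusion it was 0.0606%, 0.0959%, 0.0906% and 0.0898% (donors 1 to 4), on microcarriers 0.648%, 0.662%, 0.638% and 0.488%, and on plates 0.180%, 0.223%, 0.0690% and 0.104%. The lowest microcarrier share had an exact 95% binomial interval of 0.431% to 0.549%, and the highest share elsewhere, plate 2 with 52 reads of the 5p arm, one of 0.166% to 0.292%. Such intervals cover counting error only, since the reads carry no molecular identifiers in the sources used here. The group means were 0.0842% ± 0.0160 in perfusion, 0.609% ± 0.0815 on microcarriers and 0.144% ± 0.0701 on plates (SD, n = 4 each). The log2 ratio of miR-27b-5p to miR-27b-3p differed among the 3 cultures by an exact permutation test over all groupings of the 12 libraries (adjusted p = 0.0109 over 9 ratios).

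By pairs of cultures, the log2 arm ratio differed by -2.83 between perfusion and microcarriers and by 2.20 between microcarriers and plates, without overlap of groups in either. Each gave the smallest p that 4 against 4 libraries allow (exact two-sided permutation p = 0.0286). Over the 27 comparisons of 9 ratios this became 0.154, as it did for all 5 pairs at that smallest p, and no pair passed. Under this adjustment a pair could pass only if many more pairs stood at the smallest p. Not passing therefore says little about any 1 pair. Perfusion minus plates was -0.63 with overlap (exact two-sided permutation p = 0.200). The summed blood-cell markers given above were likewise lowest in perfusion, and their highest libraries were on microcarriers. With the marker rows of blood cells, endothelium, and liver and gut left out and libraries rescaled, miR-27b-5p differed by -3.97 between perfusion and microcarriers (limma adjusted p = 0.00702) and by 2.87 between microcarriers and plates (limma adjusted p = 0.0309).

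**Figure D3:**
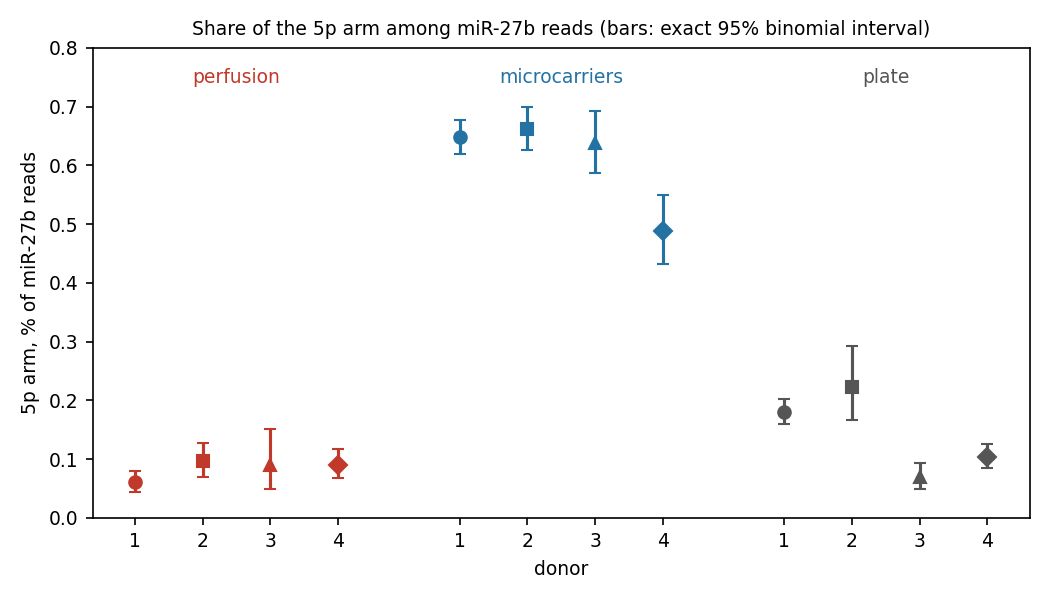
Share of the 5p arm among miR-27b reads (y axis, %) in each library, by culture and donor (x axis), with exact 95% binomial intervals. The 4 microcarrier libraries lie between 0.488% and 0.662%, and all others at or below 0.223%.

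Neither miR-24 5p row passed in any comparison without the donor block. By its name, miR-24-1-5p would belong to the gene on the chromosome of miR-23a in the pig annotation and beside miR-23b in human. It stood at 436, 379, 268 and 496 normalized counts in perfusion and 617, 598, 489 and 468 on microcarriers. On plates it stood at 353, 261, 273 and 297. Microcarrier libraries all lay above plate libraries, and perfusion overlapped both. The log2 difference between microcarriers and plates was 0.87 ± 0.26, higher in 4 of 4 donors (limma adjusted p = 0.110, and 0.0476 with donor as a block). Perfusion minus plates was 0.39 ± 0.26 (limma adjusted p = 0.336), and perfusion minus microcarriers was -0.49 ± 0.26 (limma adjusted p = 0.237).

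The rarest member was miR-24-2-5p, for which the placing is the reverse. It had 33.3, 44.7, 8.12 and 17.998 normalized counts in perfusion, 95.2, 82.1, 35.7 and 61.0 on microcarriers, and 49.2, 44.3, 12.6 and 39.1 on plates, resting on as few as 6 reads in perfusion 3 and 9 in plate 2. All groups overlapped. Perfusion minus microcarriers was -1.52 ± 0.56 on the log2 scale, lower in 4 of 4 donors (limma adjusted p = 0.0898, and 0.00496 with donor as a block). For microcarriers minus plates it was 0.97 ± 0.56 (limma adjusted p = 0.302) and perfusion minus plates was -0.55 ± 0.56 (limma adjusted p = 0.516).

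The abundant arm of both miR-24 genes, miR-24-3p, had 8046, 11266, 5692 and 9429 normalized counts in perfusion, 18904, 15378, 10253 and 15662 on microcarriers, and 18317, 29679, 9817 and 9953 on plates. The groups overlapped, and perfusion was lower than plates and than microcarriers in 4 of 4 donors. The differences were -0.86 ± 0.36 against plates and -0.82 ± 0.36 against microcarriers on the log2 scale (limma adjusted p = 0.116 and 0.145, and 0.0291 and 0.0412 with donor as a block). Microcarriers minus plates was -0.05 ± 0.36 (limma adjusted p = 0.959), with a sign that turned when some single libraries were left out and in limma-voom. The 5p rows summed to 0.0497 ± 0.00904 of miR-24-3p in perfusion, 0.0417 ± 0.00766 on microcarriers and 0.0238 ± 0.0102 on plates (ratio of normalized counts, SD, n = 4 each). This ratio was added after the values had been seen and was not tested.

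Counted by comparison, in perfusion against plates 1 member of 7 rose (miR-23a) and 1 fell (miR-27a), where 10.3% of all 252 miRNAs were called higher, 10.3% lower and 20.6% in either direction. The members' count is close to that background. Their groups were also the only ones of the 7 that did not overlap, 1 above and 1 below, against 12.3% of all miRNAs higher and 10.7% lower without overlap. The median log2 fold change was -0.53 over the members and -0.06 over all miRNAs.

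On microcarriers against plates 2 members were called, miR-23a and miR-27b-5p, both higher, where 1.59% of all miRNAs were called higher. At this threshold limma called 6 of the 252 in all, 2.38%. Groups did not overlap for 4 members, all higher, against 5.16% of all miRNAs higher without overlap. Of the 7, 6 were higher in 4 of 4 donors, and miR-27a was higher in 3. This was not counted over all miRNAs, so it is given as a description only. The median log2 fold change was 0.97 over the members and 0.11 over all miRNAs. With donor as a block in limma 4 of the 7 members and 23 of all 252 miRNAs were called, both counted in either direction. The 4 members (miR-23a, miR-23b, miR-24-1-5p and miR-27b-5p) were all higher, and the share of all miRNAs higher under this block is not given here.

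In perfusion against microcarriers 2 members were called, miR-27a and miR-27b-5p, both lower, where 9.92% of all miRNAs were called lower (15.5% in either direction). Groups did not overlap for these 2, against 13.1% of all miRNAs lower without overlap. Of the 7 members, 5 were lower in 4 of 4 donors, with miR-23a and miR-24-1-5p lower in 3. Here too the share over all miRNAs was not counted. The median log2 fold change was -1.27 over the members and -0.07 over all miRNAs. With donor as a block in limma 4 members fell (miR-27a, miR-27b-3p, miR-27b-5p and miR-24-2-5p), where 59 of all miRNAs were called in either direction.

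**Figure D4:**
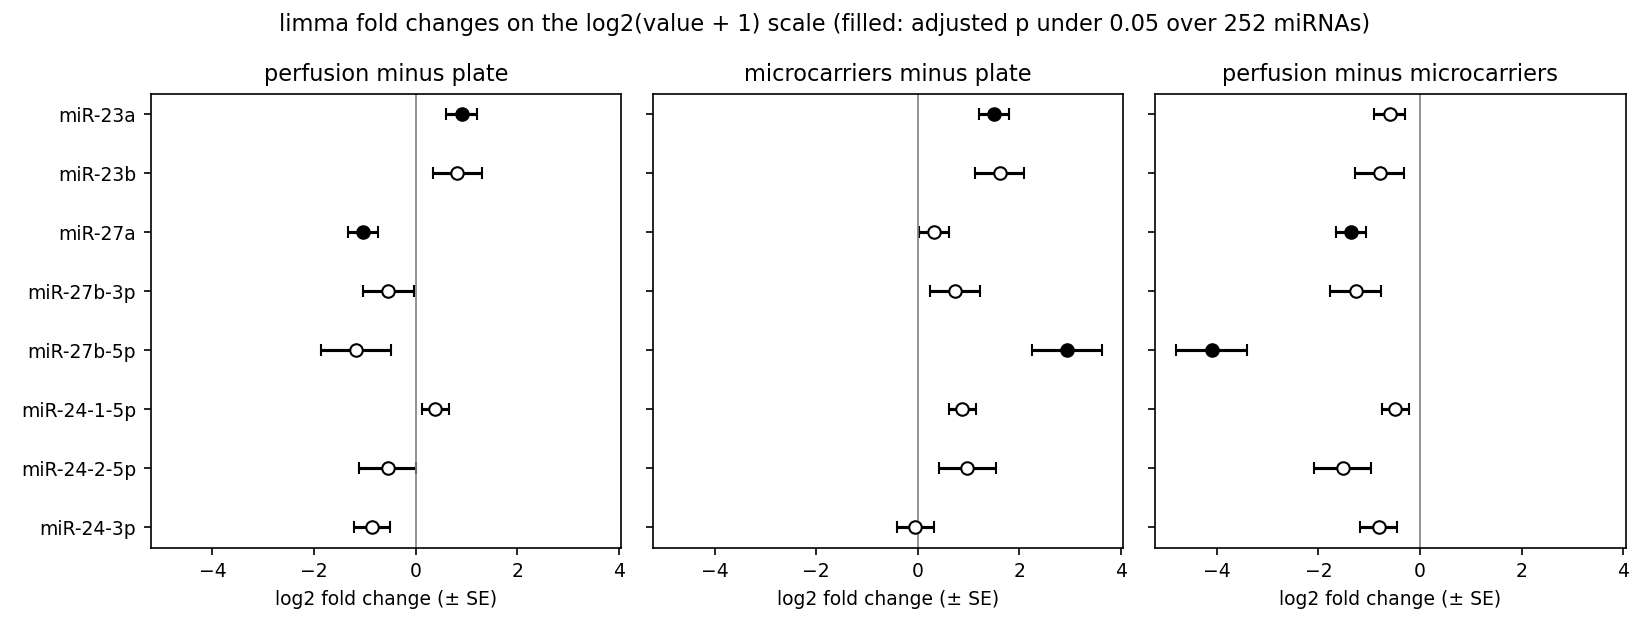
Log2 fold changes (x axis, log2(value + 1) scale) from limma with SE bars for the 7 members and miR-24-3p (y axis) in the 3 comparisons, filled where the adjusted p over 252 miRNAs was under 0.05. The miR-23 rows lie above 0 and the miR-27 rows below 0 in perfusion minus plate, with 1 filled point each.

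Within the a cluster, the level of miR-27a relative to miR-23a differed by culture. The ratio of their normalized counts was 0.492, 0.874, 0.386 and 0.604 in perfusion (donors 1 to 4), 1.81, 1.24, 0.639 and 0.575 on microcarriers, and 2.05, 3.10, 1.68 and 2.03 on plates. All perfusion ratios were below 1 and all plate ratios above it, with microcarriers between and overlapping both groups. The 3 cultures differed by an exact permutation test (adjusted p = 0.0156 over 9 ratios). The log2 ratio differed by -1.94 between perfusion and plates, a ratio of 0.261, lower in 4 of 4 donors (exact two-sided permutation p = 0.0286, the smallest possible, adjusted p = 0.154 over 27 comparisons). For microcarriers minus plates it was -1.18, lower in 4 of 4 donors (exact two-sided permutation p = 0.0571), and for perfusion minus microcarriers -0.76 (exact permutation p = 0.171).

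Within the b cluster, the ratio of miR-27b-3p to miR-23b was also lower in perfusion than on plates. It was 6.12, 5.79, 4.34 and 4.93 in perfusion, 11.4, 8.02, 5.60 and 5.47 on microcarriers, and 12.0, 15.0, 19.9 and 8.97 on plates. Perfusion and plates did not overlap, and microcarriers overlapped both. The cultures differed by the exact permutation test (adjusted p = 0.0171 over 9 ratios). Perfusion minus plates was -1.35 in the log2 ratio, lower in 4 of 4 donors (exact two-sided permutation p = 0.0286, the smallest possible, adjusted p = 0.154). Microcarriers minus plates was -0.88 (exact p = 0.0571, 4 of 4 donors) and perfusion minus microcarriers -0.47 (exact p = 0.171, 4 of 4 donors). Both neighbour ratios passed the exact permutation test of 3 cultures whichever 1 library was left out (adjusted p 0.0109 to 0.0444 for the a cluster and 0.0145 to 0.0452 for the b cluster) and with labels permuted within donors (0.0278 and 0.0208).

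For miR-23 and miR-27, the ratios of a to b paralogues did not pass with labels permuted freely over the 12 libraries. With labels permuted within donors 1 of these passed, and so did the ratio of the miR-24 5p rows, given below. miR-23a over miR-23b was 1.15, 0.478, 2.02 and 1.20 in perfusion, 0.613, 0.668, 1.65 and 1.12 on microcarriers, and 0.607, 0.764, 2.57 and 0.875 on plates. Donor 3 had the highest ratio in every culture, and the spread between donors was wider than that between cultures (exact permutation adjusted p = 0.936 over 9 ratios). miR-27a over miR-27b-3p was 0.0923, 0.0721, 0.180 and 0.147 in perfusion, 0.0973, 0.104, 0.188 and 0.118 on microcarriers, and 0.103, 0.158, 0.217 and 0.198 on plates. Donor 3 was again the highest in each culture. The cultures did not differ by the free permutation (exact permutation adjusted p = 0.476), while with labels permuted within donors the ratio passed (exact permutation adjusted p = 0.0486), with perfusion lower than plates and microcarriers lower than plates in 4 of 4 donors each.

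Summed by human numbering, the a cluster over the b cluster averaged 0.303 ± 0.164 in perfusion, 0.245 ± 0.121 on microcarriers and 0.233 ± 0.0811 on plates (SD, n = 4 each; exact permutation adjusted p = 0.908 over 9 ratios). With the miR-24 rows placed by their pig loci the adjusted p was 0.889. The share of miR-23a and miR-27a in the sum of the 7 members was 22.3% ± 9.46 in perfusion, 19.1% ± 7.59 on microcarriers and 18.6% ± 5.35 on plates.

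**Figure D5:**
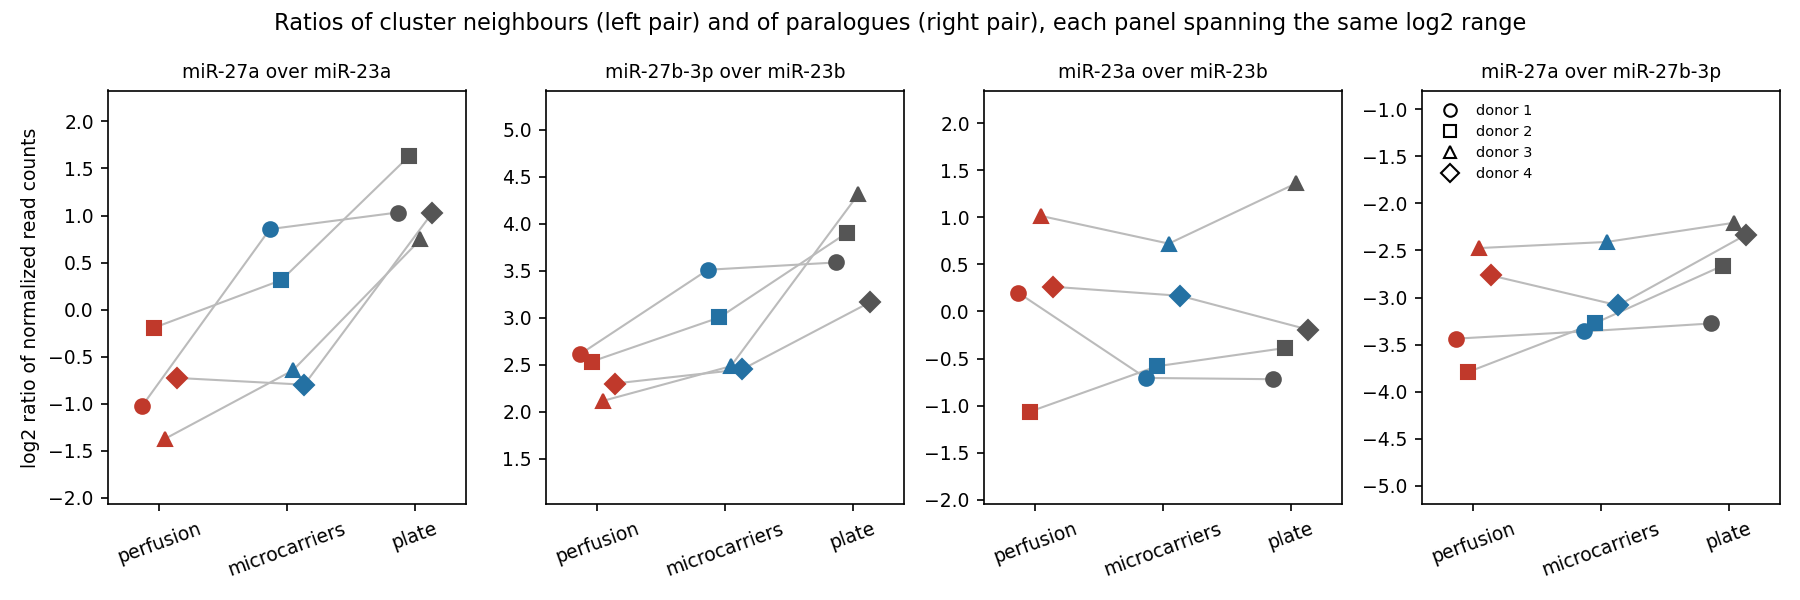
Log2 ratio of normalized read counts (y axis, each panel spanning the same range) by culture (x axis), with 1 symbol and line per donor. The left pair, miR-27 over its cluster neighbour miR-23, is lower in perfusion than on plates in every donor, and perfusion and plates do not overlap there. In the right pair, a over b paralogues, all cultures overlap, while miR-27a over miR-27b-3p is also lower in perfusion than on plates in every donor.

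Among the other ratios, miR-24-1-5p over miR-27b-5p differed by culture (exact permutation adjusted p = 0.0156 over 9 ratios). It averaged 10.7 ± 4.43 in perfusion, 0.820 ± 0.346 on microcarriers and 4.93 ± 4.43 on plates (SD, n = 4 each), and perfusion lay above microcarriers without overlap. By human numbering this ratio lies within the b cluster and by pig numbering it crosses the clusters. Without microcarriers 1 or 2 it did not pass (adjusted p = 0.0545 in each case). miR-24-2-5p over miR-24-1-5p averaged 0.0652 ± 0.0407 in perfusion, 0.124 ± 0.0353 on microcarriers and 0.122 ± 0.0530 on plates, with an exact permutation adjusted p of 0.267, and 0.0486 with labels permuted within donors. It was lower in perfusion in 4 of 4 donors against each other culture. miR-24-2-5p over miR-27a did not pass (exact permutation adjusted p = 0.476).

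The ratios spanned ranges of different width over the 12 libraries. miR-24-3p over miR-27a ran from 0.946 to 1.68, a range of 1.78-fold, whereas miR-27a over miR-23a spanned 8.02-fold and miR-24-3p over miR-23a spanned 8.65-fold. By group, miR-24-3p over miR-27a was 1.53 ± 0.116 in perfusion, 1.05 ± 0.115 on microcarriers and 1.37 ± 0.222 on plates (SD, n = 4 each). miR-24-2-5p over miR-27b-3p spanned 2.81-fold, and miR-27b-5p over miR-27b-3p, which come from 1 hairpin, spanned 11.0-fold. miR-24-3p over miR-27a, miR-24-3p over miR-23a and miR-24-2-5p over miR-27b-3p were added after the values had been seen and were not tested.

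Correlations of log2 values over the 12 libraries are given as a description. These libraries share donors and cultures, so the points are not independent. miR-27a correlated with miR-24-3p at a Pearson r of 0.92, with miR-27b-5p at 0.87 and with miR-27b-3p at 0.84, and with its cluster neighbour miR-23a at 0.10. miR-23a correlated with its paralogue miR-23b at 0.66 and with miR-24-3p at -0.08. miR-27b-3p correlated with miR-24-2-5p at 0.92, with miR-27b-5p at 0.88 and with miR-23b at 0.74.

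Of the other miRNAs with a mean of at least 100 normalized counts, those most alike to miR-23a over the 12 libraries were miR-210, the miRNA best known as induced by hypoxia, at an r of 0.91, miR-222 at 0.77 and miR-574-3p at 0.74. miR-210 averaged 398 normalized counts in perfusion, 968 on microcarriers and 146 on plates, and rose against plates in both (limma log2 fold change 1.50 ± 0.39, adjusted p = 0.0164, and 2.65 ± 0.39, adjusted p = 0.00185). For miR-27a they were miR-24-3p, the liver miRNA miR-122-5p at 0.90 and the blood-cell miRNA miR-142-5p at 0.88. miR-122-5p averaged 21.4 normalized counts in perfusion, 773 on microcarriers and 550 on plates, and miR-142-5p averaged 6.11, 360 and 168 in the same cultures. Whether the sources of those miRNAs have a part in the level of miR-27a was not tested. With the marker rows left out, which rescales the libraries only, miR-27a differed by -0.96 between perfusion and plates (limma adjusted p = 0.0352) and by -1.22 between perfusion and microcarriers (0.0214).

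The rows most alike to miR-27b-5p were the lymphocyte miRNA miR-150 at an r of 0.85, the erythroid miR-451 at 0.83 and miR-182 at 0.82. For miR-23b they were miR-100 at 0.89, miR-182 at 0.88 and miR-183 at 0.81, and for miR-27b-3p miR-182 at 0.89, miR-24-3p at 0.85 and miR-183 at 0.82. miR-24-1-5p was most alike to miR-222 at 0.79, miR-221-5p at 0.77 and miR-183 at 0.75, and miR-24-2-5p to miR-183 and miR-182 at 0.82 each and miR-127 at 0.77. miR-182 and miR-183, which come from 1 cluster of their own, each stood among the 3 most alike rows for 4 of the 7 members.

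The members are known from lists of hypoxia, angiogenesis, adipogenesis and bone miRNAs, whose other rows are given by count. Of 10 other miRNAs on the hypoxia-induced list, 1, miR-210, rose in perfusion against plates and on microcarriers against plates, and 1, miR-192, fell in perfusion against microcarriers (-2.93 ± 0.70 on the log2 scale, limma adjusted p = 0.0125). The median log2 fold change of these 10 was -0.27 in perfusion minus plates and -0.28 on microcarriers minus plates. It was -0.15 in perfusion minus microcarriers, and the medians over all miRNAs were -0.06, 0.11 and -0.07 in that order. Of 9 other angiogenesis-promoting rows, 3 rose and 2 fell in perfusion against plates. The risers included miR-132 (2.26 ± 0.54, limma adjusted p = 0.0110) and miR-210, and the rows that fell were both arms of the endothelial miR-126 (miR-126-3p with a log2 difference of -2.90 ± 0.56, limma adjusted p = 0.00511). Against microcarriers 2 of the 9 fell in perfusion, again both arms of miR-126, and on microcarriers against plates 1 rose, miR-210. The median log2 fold change of these 9 was -0.13, 0.69 and -0.31 in perfusion minus plates, microcarriers minus plates and perfusion minus microcarriers, against -0.06, 0.11 and -0.07 over all miRNAs.

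Of 7 other rows on the adipogenesis-restraining list, 2 rose in perfusion against plates, miR-155-5p (1.74 ± 0.39 on the log2 scale, limma adjusted p = 0.00784), known from immune activation, and miR-130b-5p (1.22 ± 0.39, limma adjusted p = 0.0399). In perfusion against microcarriers 1 of the 7, miR-221-5p, fell (-1.62 ± 0.48, limma adjusted p = 0.0360). The median log2 fold change of these 7 was 0.21 in perfusion minus plates, 0.73 in microcarriers minus plates and 0.35 in perfusion minus microcarriers. Over all miRNAs it was -0.06, 0.11 and -0.07. Of the members on that list, miR-27a fell in perfusion against both other cultures and miR-27b-5p against microcarriers. miR-27b-5p also rose on microcarriers against plates. Of 7 other Runx2-directed rows 1 was called in the 3 comparisons, miR-133a-3p, which rose in perfusion against microcarriers (1.87 ± 0.37, limma adjusted p = 0.00379). Their median log2 fold change was -0.28, -0.53 and -0.24 in the 3 comparisons in that order. Of the 16 stromal marker rows, miR-145-5p and miR-143-3p rose in perfusion against microcarriers (1.59 ± 0.41 and 0.94 ± 0.25, limma adjusted p = 0.0210 and 0.0240).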

How the data were processed

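Per the labels' protocols, vesicle RNA was isolated with the miRNAeasy Micro kit and libraries were made with the NEBNext small RNA kit. Reads were mapped with Bowtie per the submitters' processing notes. Not given in the sources used here are its version, how reads were counted, and the build and annotation behind the miRNA names. The authors deposited a signal for each mature miRNA, a normalized read count per the file header, and each library's values were whole multiples of 1 step to within 0.001 of a read, from which reads were recovered (the lowest above 0 was 2). Columns were matched to libraries by library number.

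The members and lists were chosen with earlier results of these data known. All 252 miRNAs passed the filter of 1 or more in at least 4 of 12 libraries. Values were tested as log2(value + 1) in limma 3.58.1 (R 4.3.3, trended prior, all 12 libraries, culture as the only term) with Benjamini-Hochberg adjustment over all 252 and a threshold of 0.05. A fold change on this scale understates the change of low rows. For ratios between members, culture labels were permuted exactly (two-sided) on log2 ratios of values plus 1, adjusted over 9 ratios for the 3 cultures and over 27 for the pairs. Scripts ran in Python 3.11.15 (NumPy 2.4.6, SciPy 1.17.1, pandas 2.3.3, matplotlib 3.10.9) and were checked on simulated data.

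Libraries of 1 donor number come from the same animal per the labels, and their deviations from the group means correlated at 0.02 to 0.67 between cultures (Pearson r across miRNAs). P-values of the main limma fit rest on the spread between the 4 animals within a culture, pooled over the 3 cultures. Like the free permutations, that fit treats the libraries of 1 donor as independent. With donor as a block, or labels permuted within donors, p-values rest on how differences between cultures vary over the 4 donors. Alternatives were donor as a block, rescaling to library totals, pseudocounts of 0.1 and 10, no filter, a mean of at least 10, fits of only 2 groups, leaving out marker rows, and leaving out each library. Added after seeing the data were limma-voom on the recovered reads, cluster sums by pig locus and cluster sums without miR-24. Named were the members, miR-24-3p, the 3 most alike rows per member among rows with a mean of at least 100, and up to 4 called rows per list by the smallest p.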

Additional observations from a re-analysis of the deposited data

Results flagged for a closer look

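In 3 of 51 groups of 4 libraries, each a member, miR-24-3p or a ratio between members in 1 culture, 1 library stood apart by a gap, relative to the group's range, above Dixon's 95% critical value for 4 values, which chance gives in about 1 in 20 groups. The log2 ratio of miR-27b-5p to miR-27b-3p was -10.65 in perfusion of donor 1, where the other perfusion libraries lay between -10.09 and -10.01. The same ratio was -7.67 on microcarriers of donor 4, where the others lay between -7.28 and -7.23. The log2 ratio of miR-24-1-5p to miR-27b-5p was 2.07 in perfusion of donor 2, where the others lay between 3.56 and 3.75.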

How the results depend on the processing

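With a block for the paired donors, microcarriers against plates gave 23 miRNAs and 4 members, against 6 and 2 without it, perfusion against microcarriers 59 and 4, against 39 and 2, and perfusion against plates 64 miRNAs, against 52. Paired permutation within donors gave an adjusted p of 0.0486 each for miR-27a over miR-27b-3p and for miR-24-2-5p over miR-24-1-5p. For 1 pair of cultures, sign changes within donors cannot reach the threshold. With a pseudocount of 0.1, the calls of miR-23a in perfusion and miR-27b-5p on microcarriers against plates ended (limma adjusted p = 0.0515 and 0.0517). A fit of only microcarriers and plates called 3 miRNAs and 0 members. Without the marker rows 19 miRNAs were called in perfusion against microcarriers. The rows left out, 7 of blood cells, 2 of endothelium and 3 of liver and gut, had all been called lower there in the main fit. The counts of 19 and 39 are therefore not over the same rows.

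Leaving out 1 library gave 29 to 55 miRNAs and 0 to 2 members in perfusion against plates, 3 to 12 and 0 to 3 on microcarriers against plates, and 22 to 49 miRNAs in perfusion against microcarriers. For miR-24-1-5p over miR-27b-5p the adjusted p was 0.0117 to 0.0545.

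Uncalled differences that turned in sign were, over single libraries left out, miR-24-3p on microcarriers minus plates (-0.26 to 0.28, and 0.0154 in limma-voom), and log2 ratios in perfusion minus plates, microcarriers minus plates and perfusion minus microcarriers: miR-23a over miR-23b (-0.22 to 0.54, -0.39 to 0.33 and -0.10 to 0.59) and the a over the b cluster (-0.0332 to 0.63, -0.27 to 0.25 and -0.0480 to 0.61). So did miR-27a over miR-27b-3p (-0.30 to 0.14) and miR-24-2-5p over miR-27a (-0.40 to 0.10, and 0.18 with a pseudocount of 10) in perfusion minus microcarriers, and miR-24-2-5p over miR-24-1-5p on microcarriers minus plates (-0.30 to 0.33, and -0.0676 with a pseudocount of 10). The cause was not tested.

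Without the marker rows the median change over all miRNAs, in log2 units, was 0.13 in perfusion minus microcarriers, 0.07 in perfusion minus plates and -0.01 in microcarriers minus plates, against -0.07, -0.06 and 0.11. With library totals it was 0.08, 0.01 and 0.04. Under neither scaling did a member change direction. Of the recomputed values for single miRNAs and pairs of cultures, 853 kept direction and side of the threshold, 28 lost a call, 8 gained one and 26 turned in sign. Most of the recomputed values were not called in the main analysis and so could not lose a call. All the lost calls were of miR-23a, miR-27a or miR-27b-5p against plates. No filter removed no row and gave the same values. edgeR and DESeq2 were not run, and limma-voom on the recovered reads was used in their place. Rows resting on few reads, such as miR-24-2-5p with 6, are limited by depth.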
